A study of Mus musculus with 22 samples.

Results

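The kidney cortex of mice labelled Pt-CrAT was compared between 24 and 15 months of age. The comparison uses every chow-fed library with that genotype label, 8 of the 22 RNA libraries in the series: 3 from animals of 15 months (CrAT15Mchow183, CrAT15Mchow185 and CrAT15Mchow204) and 5 from animals of 24 months (CrAT24Mchow123, CrAT24Mchow124, CrAT24Mchow135, CrAT24Mchow136 and CrAT24Mchow146). All animals were male and of strain C57BL/6J. In the Pt-CrAT mice, Cre recombinase driven by the Ggt promoter, which is active in proximal tubules, is meant to delete Crat from those cells only. The labels give neither the floxed exon nor whether tissue was pooled. The reference groups were fl/fl mice without Cre, also male, C57BL/6J and on chow, with 3 libraries at 15 months and 5 at 24 months. The other 6 libraries, from 12-month mice of both genotype labels on a diet abbreviated LFD, served only to estimate the spread between libraries. Messenger RNA was counted at its 3' end (Lexogen QuantSeq, forward), so that a count stands for 1 sequenced 3' end whatever the length of the transcript.

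Carnitine acetyltransferase, the product of Crat, sits in the mitochondrial matrix and passes acetyl units to and from carnitine, which lets cells export surplus acetyl units. Proximal tubule cells take back most filtered solutes and burn fatty acids to pay for this transport, so their function depends on carnitine shuttling and on mitochondrial oxidation. In ageing mouse kidneys, tubular transport genes commonly decline, while immune cells, immunoglobulin transcripts, matrix genes and markers of tubular injury accumulate.

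The Crat level itself was checked first. In the 15-month libraries labelled Pt-CrAT, Crat measured 63.1, 72.6 and 71.8 CPM (counts scaled to library size, as described under processing) in CrAT15Mchow183, CrAT15Mchow185 and CrAT15Mchow204. In the 24-month libraries it measured 38.3, 37.9, 38.9, 28.4 and 37.7 CPM in CrAT24Mchow123, CrAT24Mchow124, CrAT24Mchow135, CrAT24Mchow136 and CrAT24Mchow146. The 2 ages did not overlap, and the 24-month libraries were all alike except for the lower value in CrAT24Mchow136. The fitted log2 fold change was -0.93 (SE 0.24, edgeR adjusted p = 0.0165), and the exact permutation test, 2-sided, gave p = 0.0179, the smallest value that 3 against 5 libraries can give. In fl/fl cortex Crat measured 41.5, 34.3 and 60.02 CPM at 15 months and 43.5, 112, 73.8, 76.8 and 68.1 CPM at 24 months. The 15-month libraries labelled Pt-CrAT therefore lay above all 3 fl/fl libraries of that age, against their label, and the 24-month libraries lay below all 5 fl/fl libraries. A change of Crat with age and a difference in the genotype of the animals cannot be told apart here, and each direction below refers to libraries by their label. Whether the counted 3' end lies in the deleted part of the gene is not given in the sources used here. The call for Crat was lost without CrAT15Mchow185 or CrAT15Mchow204, and without CrAT24Mchow123 and CrAT24Mchow136 together.

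**Figure D1:**
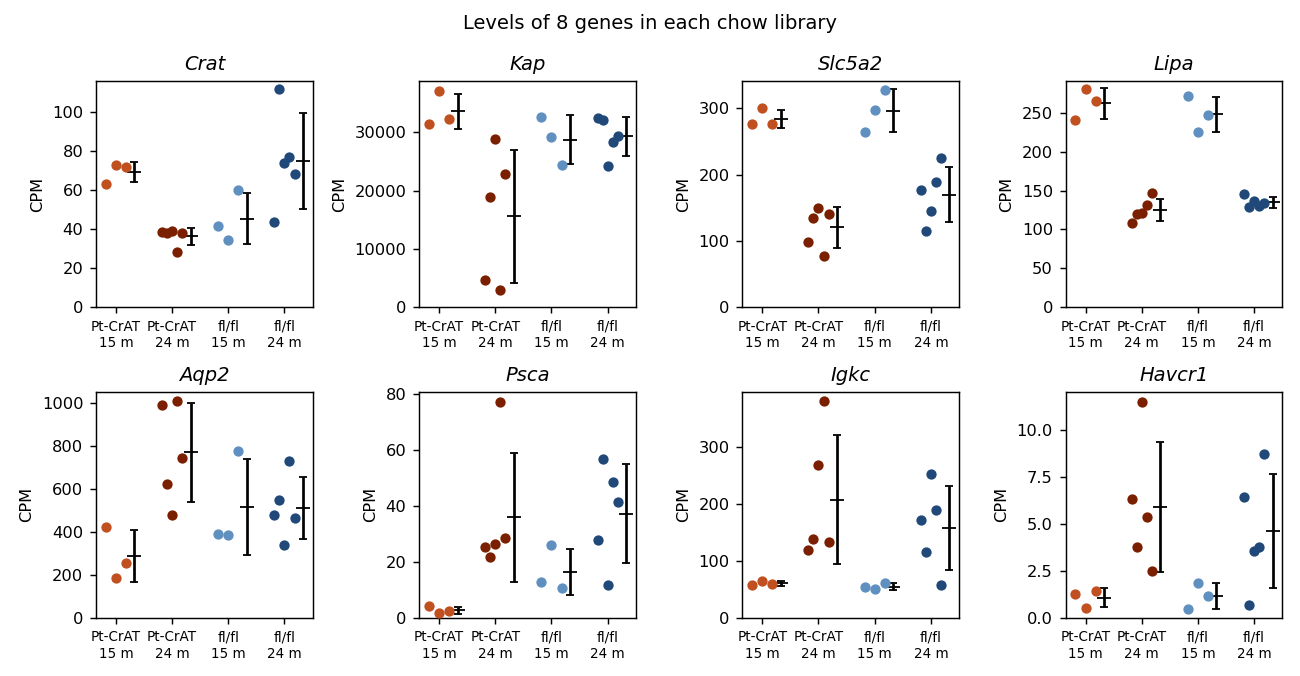
Scaled counts (CPM, linear axes from 0) of 8 genes in each chow library of 15 and 24 months (m), by genotype label; each point is 1 library and the bars beside the points show the mean and SD. Crat at 24 months lies between 28.4 and 38.9 CPM in libraries labelled Pt-CrAT, below the 63.1 to 72.6 CPM of the 15-month libraries, and Kap is lowest in CrAT24Mchow123 and CrAT24Mchow136.

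The 8 libraries held between 12199544 and 17447367 counts. Markers of cortex were present in all of them: Slc34a1, the main phosphate transporter of the proximal tubule, measured 3289 CPM or more, and the 21 podocyte and glomerular genes summed to between 730.2 and 1008 CPM. Transcripts of the mitochondrial genome took 5.10% to 5.82% of counts. On the first principal component, which held 45% of the variance among the 8, all 15-month libraries lay on 1 side (-50.4 to -20.7) and all 24-month libraries on the other (6.95 to 52.4). CrAT24Mchow136 lay farthest out and CrAT15Mchow183 lay nearest to the 24-month libraries. CrAT24Mchow123 and CrAT24Mchow136 stood apart from the other 24-month animals in Kap, the androgen-dependent kidney protein of the proximal tubule: 4565 and 2853 CPM, against 18928, 28807 and 22860 CPM in CrAT24Mchow124, CrAT24Mchow135 and CrAT24Mchow146. The labels name no batch, but the age groups are separate sets of animals, so that age and any difference in dissection or cohort cannot be told apart.

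Of 15064 genes tested, 1705 (11.3%) passed an adjusted p of 0.05 in edgeR's quasi-likelihood test, here termed called. At 24 months 845 genes (5.61%) were called higher and 860 (5.71%) lower. The direction was unequal in size: of the 540 called genes with a change of over 2-fold, 405 were higher. Values of the 2 ages did not overlap for 3279 genes (21.8%), 1581 (10.5%) higher and 1698 (11.3%) lower. The balance of higher and lower calls rests on the scaling. With library totals in place of TMM scaling, 2710 genes were called, 2408 of them (88.9%) higher, and the median log2 change of all genes moved from 0.04 to 0.29, a shift of 0.24.

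The number of calls also rested on single 15-month animals. Without CrAT15Mchow185 there were 421 calls and without CrAT15Mchow204 there were 393, while leaving out CrAT15Mchow183 gave 1646. Leaving out any 1 of the 24-month animals gave 1097 to 1777 calls, and leaving out CrAT24Mchow123 and CrAT24Mchow136 together gave 417. Of the 1705 genes, 280 were called in each of the 8 fits that left out 1 library, and 256 of these were also called without CrAT24Mchow123 and CrAT24Mchow136 together. No called gene changed direction in any of these fits.

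**Figure D2:**
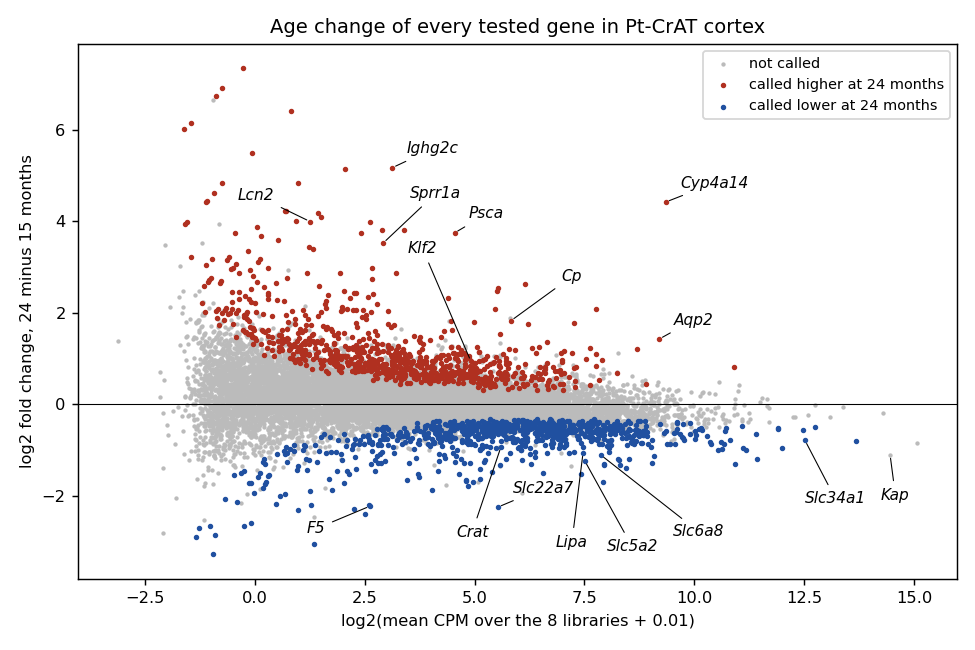
Log2 fold change (24 minus 15 months) of each of the 15064 tested genes in libraries labelled Pt-CrAT, against log2 of its mean CPM over the 8 libraries (0.01 added); red and blue points are genes called higher and lower. The largest rises belong to genes of low level, and the called falls are mostly under 2-fold.

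The gene with the smallest adjusted p was Lipa, lysosomal acid lipase, which breaks down cholesteryl esters and triglycerides in lysosomes. It measured 241, 281 and 266 CPM at 15 months and 108, 120, 121, 132 and 146.4 CPM at 24 months. Each 24-month animal lay well below the lowest 15-month animal, and the log2 fold change was -1.07 (SE 0.12, edgeR adjusted p = 4.93e-05). Slc6a8, the creatine transporter, measured 273, 355 and 430 CPM at 15 months and between 150 and 187 CPM at 24 months (log2 fold change -1.11, SE 0.13, adjusted p = 7.4e-05). The transcription factor gene Etv1 fell from 32.97, 47.0 and 46.3 CPM to between 8.14 and 21.5 CPM (log2 fold change -1.53, adjusted p = 0.000252). F5, coagulation factor V, fell from between 9.81 and 16.6 CPM to between 1.39 and 3.42 CPM. Paqr7, a membrane progestin receptor, fell from between 502 and 608 CPM to between 131 and 319 CPM. Among the rises with the smallest p were Epha4, an ephrin receptor, from between 2.41 and 3.76 CPM to between 5.89 and 9.57 CPM, and Myof, the membrane-repair protein myoferlin, from between 15.0 and 20.5 CPM to between 32.5 and 62.4 CPM. Aldh1a1, a retinaldehyde dehydrogenase, rose from 16.6, 14.9 and 12.23 CPM to 85.9, 46.3, 38.3, 87.6 and 51.8 CPM (log2 fold change 2.08, SE 0.33, adjusted p = 0.00141). These 8 genes were called in each fit that left out 1 library.

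The 10 tested members of the shuttle list had a median log2 change of -0.30, against 0.04 over all tested genes. Of these members 3 (30%) were called lower, against 5.71% over all tested genes, and none higher. Besides Crat these were Cpt1a and Cpt2, the outer and inner membrane carnitine palmitoyltransferases that carry long-chain fatty acids into mitochondria. Cpt2 measured 280, 318 and 300 CPM at 15 months and 120, 191, 160, 173 and 258 CPM at 24 months (log2 fold change -0.73, SE 0.16, adjusted p = 0.00561). Its level in CrAT24Mchow146 lay close to the 15-month range and that in CrAT24Mchow123 was the lowest. Cpt1a measured 221, 266 and 283 CPM at 15 months and between 129 and 176 CPM at 24 months (log2 fold change -0.72, adjusted p = 0.00603; the call was lost without CrAT15Mchow204). Crot, the peroxisomal carnitine octanoyltransferase, was not called (log2 fold change -0.48, adjusted p = 0.112); it measured 56.5 and 58.8 CPM in CrAT24Mchow123 and CrAT24Mchow136 and between 110 and 116 CPM in the other 24-month animals, against 122 to 133 CPM at 15 months.

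Of 33 genes of mitochondrial fatty acid oxidation, 12 (36.4%) were called lower and 1 (3.03%) higher, against 5.71% and 5.61% over all genes. The median log2 change was -0.30. The summed level was between 11873 and 12793 CPM at 15 months. At 24 months it was 9437, 9728 and 9871 CPM in CrAT24Mchow124, CrAT24Mchow135 and CrAT24Mchow146 and 6957 and 6407 CPM in CrAT24Mchow123 and CrAT24Mchow136, so that no 24-month animal reached the 15-month range. Acsm1, a medium-chain acyl-CoA synthetase, measured 94.5, 107 and 89.6 CPM at 15 months and 33.2, 61.1, 64.2, 24.5 and 57.1 CPM at 24 months (log2 fold change -1.01, SE 0.21, adjusted p = 0.00495). Acadvl, very long-chain acyl-CoA dehydrogenase, fell from between 278 and 339 CPM to between 189 and 262 CPM. Acsm2, a related synthetase abundant in proximal tubules, fell from between 2815 and 3683 CPM to between 721 and 2368 CPM. Without CrAT24Mchow123 and CrAT24Mchow136 together, 5 of the list's genes were called lower and none higher; with 1 library left out the count of lower genes ranged from 2 to 13.

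Targets of PPAR alpha, the receptor that switches on fat burning genes, were listed together with genes of peroxisomal lipid metabolism. Of these 31 genes 3 (9.68%) were called higher and 5 (16.1%) lower, against 5.61% and 5.71% over all genes. With 1 library left out, 0 to 3 were called higher and 0 to 7 lower. Cyp4a14, a fatty acid omega-hydroxylase, measured 71.7, 43.7 and 27.3 CPM at 15 months and 1625, 338, 142, 2338 and 635 CPM at 24 months. The 24-month animals spread widely, with CrAT24Mchow123 and CrAT24Mchow136 highest, and all lay above the 15-month animals (log2 fold change 4.42, SE 1.0, adjusted p = 0.00987). Its neighbour Cyp4a10 rose from between 67.9 and 143 CPM to between 160 and 355 CPM, and Acot1, a cytosolic acyl-CoA thioesterase, from between 70.6 and 98.4 CPM to between 105 and 235 CPM. The reverse direction was seen for Angptl4, an inhibitor of lipoprotein lipase, which measured between 106 and 114 CPM at 15 months and 24.2, 58.8, 62.0, 69.2 and 67.0 CPM at 24 months. Cyp4a12a, a male-predominant hydroxylase regulated by androgens, fell from 207, 290 and 379 CPM to 54.1, 126, 203.9, 33.2 and 86.7 CPM. Without CrAT24Mchow123 and CrAT24Mchow136 the list kept 1 call in each direction, and Cyp4a14, Cyp4a10 and Cyp4a12a were no longer called. The near-identical Cyp4a copies may share reads, so that their single levels are uncertain.

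Of 76 nuclear genes of oxidative phosphorylation, 11 (14.5%) were called lower and none higher (median log2 change -0.22). Of 39 citric acid cycle and pyruvate dehydrogenase genes 4 (10.3%) were called lower and none higher (median -0.22). Over all genes 5.71% were called lower. The 11 calls fell to 0 without CrAT15Mchow185, without CrAT15Mchow204, without CrAT24Mchow123 and CrAT24Mchow136 together and under library totals, and the 4 calls ranged from 1 to 5 with 1 library left out. Both medians turned above 0 (0.017 and 0.015) under library totals, where the median of all genes was itself 0.29; relative to the median of all genes, each was -0.27 under either scaling. Uqcrc1, a core subunit of complex III, measured 485, 486 and 502 CPM at 15 months and 319, 327.5, 363, 340 and 429 CPM at 24 months (log2 fold change -0.47, SE 0.12, adjusted p = 0.0174). Ndufc2 of complex I fell from between 110 and 135.7 CPM to between 69.6 and 91.2 CPM, and Atp5e of ATP synthase from between 342 and 385 CPM to between 228 and 309 CPM. The calls for these 3 subunits were lost without CrAT15Mchow185, without CrAT15Mchow204, without CrAT24Mchow123 and CrAT24Mchow136 together, and under library totals. Mdh1 and Mdh2, the cytosolic and mitochondrial malate dehydrogenases, fell by 0.67 and 0.55 on the log2 scale (adjusted p = 0.0126 and 0.012). Pdk3, a kinase that shuts off pyruvate dehydrogenase, was uniform at 15 months (92.0, 91.2 and 90.5 CPM) and measured 30.3, 50.4, 63.4, 29.8 and 59.1 CPM at 24 months (log2 fold change -0.97, SE 0.19, adjusted p = 0.00317). Among 10 transcripts of the mitochondrial genome, mt-Nd5 and mt-Nd2, both complex I subunits, were called lower, and all 10 values were lower at 24 months (median log2 change -0.27, and -0.03 under library totals). Neither was called without CrAT15Mchow185 or without CrAT24Mchow123 and CrAT24Mchow136 together, and the call for mt-Nd2 was lost in 4 of the 8 fits that left out 1 library. As a share of all counts, before TMM scaling, mitochondrial transcripts took 5.34% ± 0.228 (SD, n = 3) at 15 months and 5.54% ± 0.274 (SD, n = 5) at 24 months (exact permutation test, 2-sided, p = 0.304).

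Acyl-CoA handling and the mitochondrial deacetylase Sirt3 are close to the reaction of carnitine acetyltransferase. Sirt3, which removes acetyl groups from mitochondrial proteins, measured 56.5, 57.0 and 62.3 CPM at 15 months and 35.3, 40.7, 42.9, 36.4 and 44.4 CPM at 24 months. It was the 1 of 7 sirtuin genes called (log2 fold change -0.55, SE 0.11, adjusted p = 0.00301). Of 26 genes that handle acetyl-CoA and acyl-CoA, 7 (26.9%) were called lower and 1 (3.85%), Acot1, higher, against 5.71% and 5.61% over all genes. In this list 1 was called lower without CrAT15Mchow185 or CrAT15Mchow204 and in the fit of the 8 libraries alone. Without CrAT24Mchow123 and CrAT24Mchow136 together or under library totals, 2 were called lower. Mlycd, malonyl-CoA decarboxylase, which relieves the block on Cpt1a, fell from between 139 and 158 CPM to between 62.4 and 107 CPM (log2 fold change -0.74, adjusted p = 0.00309). Nudt19, a peroxisomal coenzyme A hydrolase of the kidney, fell from 410, 613 and 679 CPM to 88.6, 294, 375, 177 and 298 CPM. Its call was lost in 3 of the 8 fits that left out 1 library.

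Of 42 genes of lipid uptake and storage 3 (7.14%) were called higher, near the 5.61% over all genes, and 6 (14.3%) lower, against 5.71%; 2 to 6 were called lower with 1 library left out. Dgat2, which makes triglycerides, measured 104, 121 and 130 CPM at 15 months and between 58.0 and 76.2 CPM at 24 months (log2 fold change -0.78, SE 0.12, adjusted p = 0.00117). Slc27a2, a fatty acid transporter and acyl-CoA synthetase, fell from 1567, 2611 and 2685 CPM to between 755 and 1357 CPM, and Lpl, lipoprotein lipase, from between 921 and 1016 CPM to between 406 and 668 CPM. The adipocyte marker Adipoq, adiponectin, which is not a kidney tubule product, was listed at 7.0004, 3.96 and 4.75 CPM at 15 months and between 0.197 and 2.12 CPM at 24 months, and was not called (adjusted p = 0.0623). The 13 adipocyte genes summed to between 403.1 and 516.7 CPM at 15 months and between 242.4 and 372.1 CPM at 24 months. Among them 2 (15.4%) were called lower, against 5.71% over all genes. The part of adherent fat in the lower Lpl and lipid values was not tested.

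Markers of the first and second proximal tubule segments made up the list with the largest share of lower calls. Of 32 tested genes 15 (46.9%) were called lower and none higher, against 5.71% lower over all tested genes, with a median log2 change of -0.53. The summed level was 29014, 32480 and 31376 CPM at 15 months and 17836, 20812, 21543, 16122 and 21959 CPM at 24 months, without overlap. Fewer proximal tubule cells in the sample and less of these transcripts per cell cannot be told apart in bulk tissue, here or for any other cell type named below.

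Slc5a2, the sodium-glucose transporter SGLT2 of the early proximal tubule, measured 277, 300 and 276 CPM at 15 months and 99.0, 134.5, 150, 77.6 and 141 CPM at 24 months (log2 fold change -1.24, SE 0.18, adjusted p = 0.000743). All 24-month animals lay far below the 15-month range, with CrAT24Mchow123 and CrAT24Mchow136 lowest. Both sodium-phosphate transporters of the brush border fell. Slc34a1 measured 7507, 8267 and 8044 CPM at 15 months and 3594, 5096, 5691, 3289 and 5261 CPM at 24 months (log2 fold change -0.79, adjusted p = 0.00504), and Slc34a3 fell from between 28.6 and 32.1 CPM to between 5.56 and 15.1 CPM (log2 fold change -1.47, adjusted p = 0.00133). Amino acid uptake genes moved the same way: Slc6a19, the neutral amino acid transporter of the apical side, fell from 466, 642 and 548 CPM to between 254 and 350 CPM, and Slc7a7, the basolateral cationic amino acid transporter, from between 122 and 142 CPM to between 72.4 and 97.2 CPM. Ass1, argininosuccinate synthase, by which the kidney makes arginine, measured 3607, 4512 and 4717 CPM at 15 months and 1972, 2024, 1892, 1228 and 2130 CPM at 24 months. These 6 genes were called in each fit that left out 1 library and without CrAT24Mchow123 and CrAT24Mchow136 together.

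Lrp2, the endocytic receptor megalin of the same cells, did not follow under this label. It measured between 824 and 1219 CPM at 15 months and between 860 and 1436 CPM at 24 months (log2 fold change 0.17, adjusted p = 0.706). In fl/fl cortex Lrp2 was higher at 15 months, at 1503 to 1959 CPM, and measured 618 to 1511 CPM at 24 months (log2 fold change -0.87, edgeR adjusted p = 0.0703). Klotho, Kl, had a log2 fold change of -0.41 and was not called (adjusted p = 0.167). Ggt1, the brush-border enzyme whose gene supplied the Cre promoter, measured 3365, 3310 and 3831 CPM at 15 months and 1832, 2342, 2923, 1324 and 2698 CPM at 24 months. Its adjusted p was 0.0321, and the call was lost in 5 of the 8 fits that left out 1 library. With 1 library left out, the number of first and second segment genes called lower ranged from 6 to 15, and without CrAT24Mchow123 and CrAT24Mchow136 it was 7.

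Of 21 genes of organic anion, cation and urate transport, 6 (28.6%) were called lower and 1 (4.76%) higher, against 5.71% and 5.61% over all genes. The other 14 were not called, and the median log2 change was -0.37. Between 1 and 6 were called lower with 1 library left out, and 2 without CrAT24Mchow123 and CrAT24Mchow136. Slc22a6, the basolateral organic anion transporter OAT1, fell from between 573 and 699 CPM to 196, 430, 437, 200 and 448 CPM. Slc22a7, OAT2, had the steepest fall among them, from 86.1, 90.0 and 98.6 CPM to 2.42, 21.7, 39.3, 1.65 and 30.8 CPM (log2 fold change -2.25, SE 0.64, adjusted p = 0.0307). Its level in CrAT24Mchow123 and CrAT24Mchow136 was near 0, and its call was lost without CrAT15Mchow185, CrAT15Mchow204 or CrAT24Mchow124. Slc51a, the organic solute and bile acid transporter subunit, measured 362, 497 and 434 CPM at 15 months and 70.8, 163.8, 196, 57.1 and 170 CPM at 24 months (log2 fold change -1.71, SE 0.28, adjusted p = 0.00148). Cndp2, a cytosolic dipeptidase, fell from between 311 and 471 CPM to between 82.9 and 253 CPM. For the third segment, 18 genes gave 2 higher (11.1%) and 2 lower (11.1%) calls, against 5.61% and 5.71% over all genes. The median log2 change was -0.03.

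Genes that depend on androgens in the male tubule split the 24-month animals. Of 25 such genes 8 (32%) were called lower and 2 (8%) higher, against 5.71% and 5.61% over all genes. The median log2 change was -0.64. Their summed level, most of it Kap, was between 39045 and 46191 CPM at 15 months; at 24 months it was 24884, 35468 and 28357 CPM in CrAT24Mchow124, CrAT24Mchow135 and CrAT24Mchow146 and 7704 and 5809 CPM in CrAT24Mchow123 and CrAT24Mchow136. Kap itself was not called (log2 fold change -1.11, SE 0.45, adjusted p = 0.116). Hsd17b11, a short-chain steroid dehydrogenase, measured 395, 481 and 542 CPM at 15 months and 125, 204.1, 319, 156 and 223 CPM at 24 months (log2 fold change -1.20, SE 0.25, adjusted p = 0.00495). Of the genes called higher, Prlr, the prolactin receptor, which is more abundant in female kidneys, measured 18.2, 9.48 and 7.64 CPM at 15 months and 84.5, 39.1, 24.2, 119 and 59.8 CPM at 24 months. Aoc1, the polyamine and histamine oxidase, rose from between 1.43 and 2.57 CPM to between 5.60 and 10.3 CPM. CrAT24Mchow123 and CrAT24Mchow136 held the highest Prlr and, as given above, the lowest Kap, Slc22a7 and Slc34a3 and the highest Cyp4a14. Without them 5 genes of the list were called lower and 1 higher, and Prlr was not called. The pair was left out for its low Kap, a member of this list, so that these counts are not an independent check. With 1 library left out, 2 to 13 genes of the list were called lower and 1 to 4 higher. The fit of the 8 libraries alone called 2 in each direction. In fl/fl cortex none of the 25 was called, and Kap had a log2 fold change of 0.03. Circulating androgens were not measured in these data and their part was not tested.

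**Figure D3:**
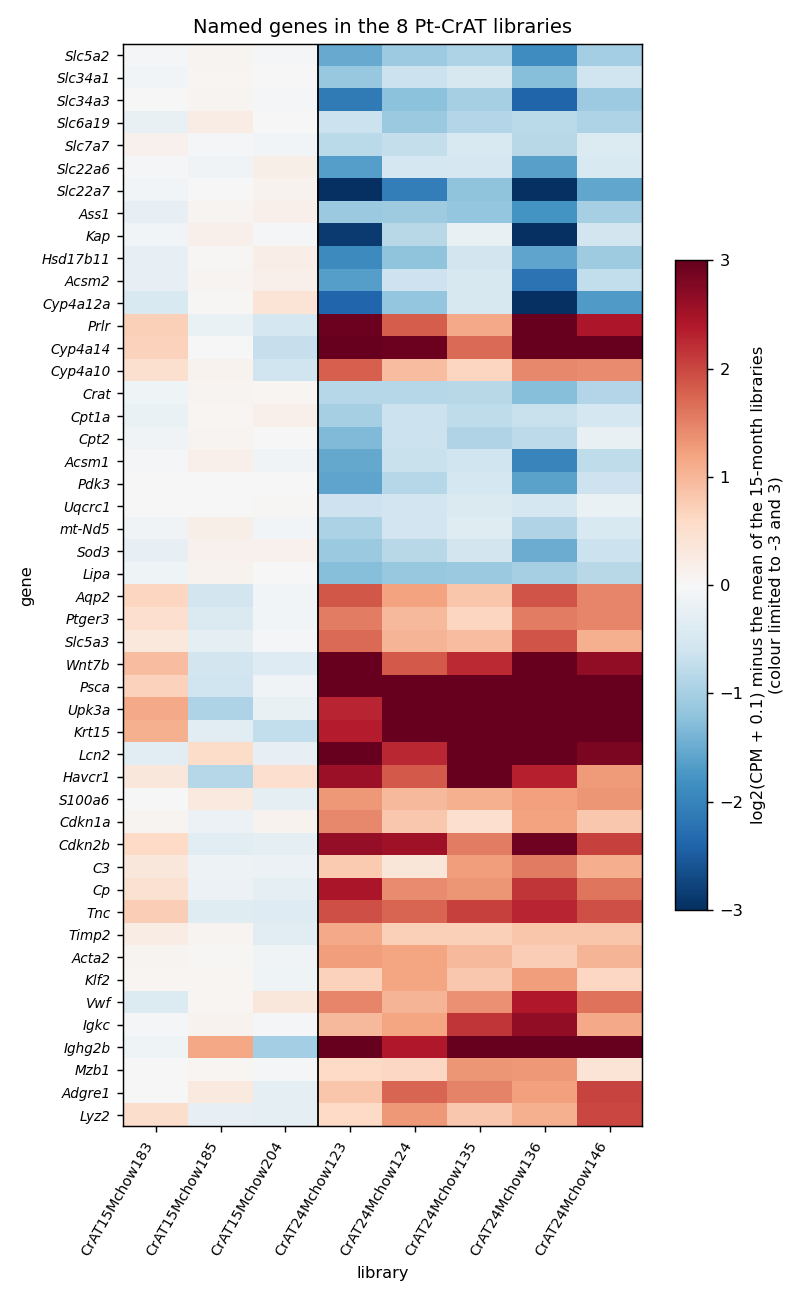
Named genes (rows) in the 8 libraries labelled Pt-CrAT (columns), as log2(CPM + 0.1) minus the mean of the 15-month libraries, with colours limited to -3 and 3. Proximal tubule, androgen-responsive and oxidation genes stand in the upper part and, apart from Prlr, Cyp4a14 and Cyp4a10, are lower at 24 months, with Kap, Slc22a7 and Cyp4a12a lowest in CrAT24Mchow123 and CrAT24Mchow136; duct, urothelial, injury, matrix and immune genes stand in the lower part and are higher.

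Of 11 tested urothelial genes, which line the renal pelvis and ureter, 8 (72.7%) were called higher, against 5.61% over all genes, with a median log2 change of 3.66. Their summed level was 24.8, 18.8 and 17.5 CPM at 15 months and 67.0, 75.2, 82.0, 156 and 84.7 CPM at 24 months. The 15-month libraries labelled Pt-CrAT were low in this sum beside fl/fl cortex of the same age (41.6 to 61.2 CPM), while at 24 months fl/fl cortex spread from 48.1 to 152 CPM. Psca, prostate stem cell antigen, which the urothelium makes, measured 4.06, 1.63 and 2.33 CPM at 15 months and 25.4, 21.7, 26.4, 76.9 and 28.6 CPM at 24 months (log2 fold change 3.74, SE 0.73, adjusted p = 0.00456). The uroplakin Upk3a of the urothelial surface measured 1.204, 0.212 and 0.402 CPM at 15 months and 2.75, 6.47, 7.74, 13.7 and 10.1 CPM at 24 months. Upk3b and Upk1b, 2 further uroplakins, and Krt15, a keratin of basal cells, stood at 0.527 CPM or less in each 15-month library and at 0.59 CPM or more in each 24-month library. Sprr1a, a cornified envelope protein, rose from between 0.563 and 1.27 CPM to between 9.13 and 14.1 CPM. The count of urothelial genes called stayed between 7 and 8 when 1 library was left out and was 8 without CrAT24Mchow123 and CrAT24Mchow136.

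In the list for thin limb and medulla, with 14 tested genes, 8 (57.1%) were called higher, against 5.61% over all genes. All 14 values were higher (median log2 change 1.13), and 3 to 8 were called with 1 library left out. Upk1b stands in this list as well. Slc5a3, the myo-inositol transporter that medullary cells use against high salt, measured 62.5, 41.5 and 49.1 CPM at 15 months and 163.6, 102, 95.8, 187 and 106 CPM at 24 months (log2 fold change 1.36, SE 0.23, adjusted p = 0.00148). Slc6a12, the betaine transporter with the same role, had no count in any 15-month library and 99 counts over the 24-month libraries. This is at least 17.1-fold higher when 3 counts over the 15-month group are taken as the limit. In fl/fl cortex Slc6a12 was present at 15 months (0.153 to 0.756 CPM) and measured 0.226 to 1.82 CPM at 24 months (log2 fold change 1.13). In the collecting duct list 5 of 22 genes (22.7%) were called higher, against 5.61% over all genes. The 1 called lower (4.55%) was near the 5.71% over all genes. None was called in either direction without CrAT15Mchow185 or without CrAT24Mchow123 and CrAT24Mchow136 together. In the latter fit the list median turned from 0.12 to -0.10. Aqp2, its water channel, measured 421, 185.2 and 255 CPM at 15 months and 991, 623, 479, 1010 and 745 CPM at 24 months (log2 fold change 1.42, SE 0.30, adjusted p = 0.00555; not called without CrAT15Mchow185 or without CrAT24Mchow123 and CrAT24Mchow136 together). Wnt7b, a signal of the collecting duct and ureteric epithelium, rose from 19.9, 7.08 and 7.88 CPM to 82.4, 37.2, 49.1, 101 and 65.9 CPM. Nccrp1 rose from between 9.91 and 29.6 CPM to between 66.4 and 196 CPM.

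In the thick ascending limb list, 4 of 16 genes (25%) were called higher, against 5.61% over all genes, and none lower. With 1 library left out, 1 to 4 were called. Ptger3, a prostaglandin E receptor, rose from 58.7, 30.6 and 39.3 CPM to 120, 81.3, 64.7, 121 and 114 CPM (log2 fold change 1.23, SE 0.25, adjusted p = 0.00455). Slc12a1, the loop salt transporter targeted by furosemide, measured between 1121 and 1656 CPM at 15 months and between 1564 and 3303 CPM at 24 months, with overlapping groups (adjusted p = 0.0341; lost in 5 of the 8 fits that left out 1 library). Umod, uromodulin, of the same cells was not called (log2 fold change -0.10, adjusted p = 0.767). The distal convoluted and connecting tubule list had 4 of 17 genes (23.5%) called lower, against 5.71% over all genes, and none higher. With 1 library left out, 0 to 5 were called lower. Slc12a3, its thiazide-sensitive salt transporter, measured 203.6, 248 and 287 CPM at 15 months and between 139 and 174 CPM at 24 months (log2 fold change -0.61, adjusted p = 0.00691), and Klk1, tissue kallikrein, fell from between 1032 and 1214 CPM to between 447 and 931 CPM. Both calls were lost under library totals; with 1 library left out, that for Slc12a3 was lost only without CrAT15Mchow204 and that for Klk1 in 5 of the 8 fits. None of 21 podocyte and glomerular genes was called by edgeR; 3 had an unadjusted p under 0.05, DESeq2 and limma-voom each called 1 lower, and library totals gave 2 higher. CrAT15Mchow183, highest of the 15-month animals in Aqp2, Wnt7b, Ptger3 and Slc12a1, was also the one nearest to the 24-month libraries on the first principal component. The part of the depth of dissection in these values was not tested.

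**Figure D4:**
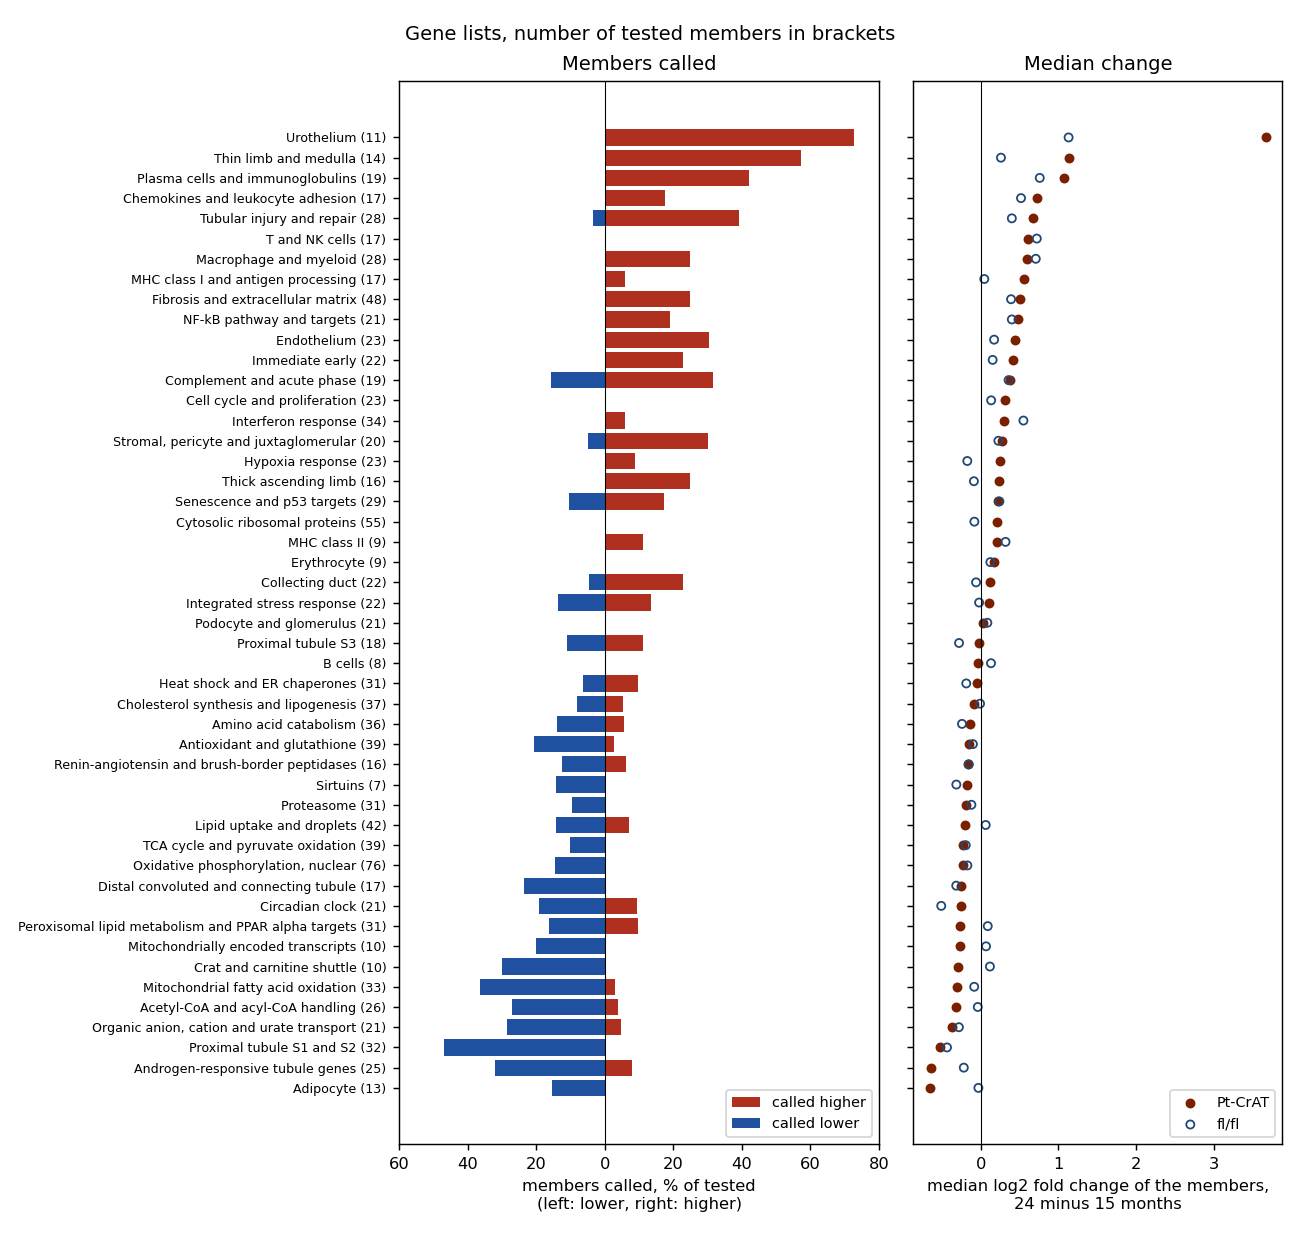
For each gene list, the share of tested members called lower (bars to the left) and higher (to the right) at 24 months in libraries labelled Pt-CrAT, and the median log2 fold change of its members in those libraries (filled) and in fl/fl (open). The urothelial list has the highest median, 3.66, and markers of the first and second proximal tubule segments have the largest share of lower calls.

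Of 28 markers of tubular injury and repair 11 (39.3%) were called higher and 1 (3.57%) lower, against 5.61% and 5.71% over all genes. The other 16 were not called, and the median log2 change was 0.67. Between 4 and 13 were called higher with 1 library left out, and 5 without CrAT24Mchow123 and CrAT24Mchow136. Havcr1, kidney injury molecule 1, measured 1.28, 0.495 and 1.45 CPM at 15 months and 6.36, 3.78, 11.5, 5.36 and 2.51 CPM at 24 months (log2 fold change 2.47, SE 0.63, adjusted p = 0.0168; lost without CrAT15Mchow185 or CrAT15Mchow204 and without CrAT24Mchow123 and CrAT24Mchow136 together). Lcn2, neutrophil gelatinase-associated lipocalin, was near 0 at 15 months, with 9 counts in all, and measured 3.60, 1.38, 3.29, 8.08 and 2.08 CPM at 24 months (log2 fold change 3.99, SE 0.64, adjusted p = 0.00128). Krt19, a keratin of ducts and of injured tubules, had 5 counts over the 15-month libraries and 189 over the 24-month libraries. In fl/fl cortex Krt19 measured 0.922 to 1.24 CPM at 15 months and 0.377 to 3.11 CPM at 24 months. S100a6, a calcium-binding protein raised in damaged epithelium, rose from 73.5, 89.2 and 60.01 CPM to 180, 144, 153.6, 172 and 184 CPM, and Vcam1, an adhesion molecule of tubules that fail to repair, from between 18.1 and 26.6 CPM to between 30.7 and 41.5 CPM. Spp1, osteopontin, was not called: 88.3, 86.6 and 82.1 CPM at 15 months and 117, 97.5, 112, 182.6 and 111 CPM at 24 months (adjusted p = 0.0839). The 1 gene called lower was Clu, clusterin (named after its values were seen), from between 129 and 130 CPM to between 66.3 and 107 CPM, a call lost in 6 of the 8 fits that left out 1 library.

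Cell cycle inhibitors of senescence were low but higher at 24 months. Cdkn1a, p21, measured 6.25, 5.24 and 6.36 CPM at 15 months and 16.3, 10.5, 8.48, 13.9 and 10.5 CPM at 24 months (log2 fold change 1.0, SE 0.25, adjusted p = 0.0138; lost without CrAT15Mchow185 or CrAT15Mchow204). Cdkn2a, which encodes p16 and p19ARF, had 1 count at 15 months and 53 at 24 months, a ratio of 27.4 with an exact 95% counting interval of 4.72 to 1104. Each 24-month library held it, at 0.371 to 1.02 CPM. Its neighbour Cdkn2b, p15, had 5 and 79 counts. Igfbp4 and Igfbp5, binding proteins of insulin-like growth factors, moved apart: Igfbp4 fell from between 931 and 1151 CPM to between 433 and 628 CPM, and Igfbp5 rose from between 87.3 and 125 CPM to between 153.5 and 247 CPM. In the list of senescence and p53 targets 5 of 29 genes (17.2%) were called higher and 3 (10.3%) lower, against 5.61% and 5.71% over all genes. With 1 library left out, 1 to 6 were called higher and 1 to 4 lower. None of 23 cell cycle genes was called by edgeR, DESeq2 or limma-voom; 3 had an unadjusted p under 0.05, all with higher values, and 4 were called higher under library totals.

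Complement genes also moved both ways, with 6 of 19 (31.6%) called higher and 3 (15.8%) lower, against 5.61% and 5.71% over all genes. With 1 library left out, 3 to 7 were called higher and 1 to 3 lower. C3, the central complement component, measured 21.9, 15.8 and 15.3 CPM at 15 months and 30.1, 22.4, 42.0, 51.8 and 37.2 CPM at 24 months (log2 fold change 1.06, SE 0.22, adjusted p = 0.00495). Cp, the copper oxidase ceruloplasmin, rose from 29.5, 19.0 and 17.4 CPM to 116, 57.6, 54.1, 95.6 and 64.8 CPM (log2 fold change 1.82, adjusted p = 0.00148). Cfb, complement factor B, fell from 428, 600 and 535 CPM to 293, 293, 364, 197 and 320 CPM. C4a fell from between 8.49 and 15.7 CPM to between 1.13 and 3.98 CPM, but it may share reads with its near-identical copy C4b and its level is uncertain.

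Of 48 matrix genes 12 (25%) were called higher, against 5.61% over all genes, and none lower, with a median log2 change of 0.51. The count ranged from 3 to 13 with 1 library left out and was 8 without CrAT24Mchow123 and CrAT24Mchow136. Tnc, the matrix glycoprotein tenascin C, measured 3.31, 1.49 and 1.45 CPM at 15 months and 7.60, 6.76, 8.38, 9.80 and 7.66 CPM at 24 months (log2 fold change 1.95, SE 0.28, adjusted p = 0.000741). Ddr2, a collagen receptor of fibroblasts, rose from between 5.63 and 9.86 CPM to between 15.5 and 19.0 CPM, and Timp2, an inhibitor of matrix metalloproteinases, from between 115 and 167.6 CPM to between 233 and 316 CPM. Acta2, smooth muscle actin, rose from between 21.9 and 24.8 CPM to between 39.1 and 55.97 CPM. The fibrillar collagens were less clear: Col1a1 measured between 7.32 and 13.9 CPM at 15 months and between 12.8 and 28.05 CPM at 24 months (adjusted p = 0.0652), and Col3a1 had a log2 fold change of 0.48 (adjusted p = 0.467).

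Of 20 stromal, pericyte and juxtaglomerular genes 6 (30%) were called higher, against 5.61% over all genes. The 1 called lower (5%) was near the 5.71% over all genes. With 1 library left out, 2 to 8 were called higher. Notch3, a receptor of mural cells, rose from 2.33, 2.48 and 2.74 CPM to 7.01, 7.05, 5.99, 4.77 and 4.65 CPM, and Rgs5, a pericyte gene, from between 24.9 and 36.8 CPM to between 46.9 and 81.6 CPM. Myoc, myocilin, went from 3.46, 9.91 and 3.70 CPM to between 0.0727 and 1.54 CPM. Of 23 endothelial genes 7 (30.4%) were called higher, against 5.61% over all genes, and none lower (median log2 change 0.44). The count ranged from 2 to 9 with 1 library left out and was 2 without CrAT24Mchow123 and CrAT24Mchow136. Klf2, a transcription factor that endothelium raises under flow, measured 19.9, 20.2 and 17.7 CPM at 15 months and 31.2, 43.5, 33.6, 46.3 and 29.5 CPM at 24 months (log2 fold change 0.93, SE 0.16, adjusted p = 0.00148). Flt1, a VEGF receptor, rose from between 58.9 and 80.2 CPM to between 88.0 and 137 CPM, and Vwf, von Willebrand factor, from between 0.527 and 0.965 CPM to between 1.60 and 4.30 CPM.

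Of 19 plasma cell and immunoglobulin genes 8 (42.1%) were called higher, against 5.61% over all genes, and none lower. The median log2 change was 1.07. The count ranged from 2 to 9 with 1 library left out and was 2 without CrAT24Mchow123 and CrAT24Mchow136. Igkc, the kappa light chain, measured 57.6, 65.1 and 58.8 CPM at 15 months and 118, 138, 268, 380 and 132 CPM at 24 months (log2 fold change 1.78, SE 0.48, adjusted p = 0.0242; lost in 4 of the 8 fits that left out 1 library). CrAT24Mchow135 and CrAT24Mchow136 were highest. The IgG heavy chains Ighg2c and Ighg2b, which may share reads, were called in each such fit: Ighg2c measured 0.753, 0.212 and 0.161 CPM at 15 months and 10.7, 3.20, 11.9, 31.4 and 11.7 CPM at 24 months (log2 fold change 5.17, SE 1.03, adjusted p = 0.00501). Mzb1, a chaperone of antibody secretion, rose from between 7.24 and 7.71 CPM to between 9.88 and 18.6 CPM. Jchain, which joins IgA and IgM, was not called (12.19 to 61.2 CPM at 24 months against 16.7 to 19.6 CPM, adjusted p = 0.25). None of 8 B cell genes was called by edgeR, DESeq2 or limma-voom, and none had an unadjusted p under 0.05. None of 17 T and NK cell genes was called by these 3 tools either; all 17 values were higher at 24 months (median log2 change 0.61), 3 of them at an unadjusted p under 0.05, and library totals gave 2 calls.

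Macrophage and myeloid genes gave 7 of 28 (25%) called higher, against 5.61% over all genes, and none lower. The count was 1 without CrAT15Mchow185 or CrAT15Mchow204, 4 without CrAT24Mchow123 and CrAT24Mchow136 and 13 under library totals. The list had a median log2 change of 0.60 and a summed level of 474.7 to 652.7 CPM at 15 months and 655.2 to 1067 CPM at 24 months. Adgre1, the surface antigen F4/80, rose from 0.903, 1.13 and 0.724 CPM to 1.70, 3.27, 2.70, 2.25 and 4.01 CPM (log2 fold change 1.58, SE 0.37, adjusted p = 0.00893). Lyz2, lysozyme, rose from between 26.3 and 46.7 CPM to between 48.6 and 129 CPM, and C1qc, a chain of complement C1q made by macrophages, from between 6.37 and 9.48 CPM to between 10.6 and 15.1 CPM. Cd74, the invariant chain of MHC class II, was at 108 to 114 CPM at 15 months and 66.5 to 145.8 CPM at 24 months (log2 fold change 0.05, adjusted p = 0.937). Of 34 interferon response genes 2 (5.88%) were called higher, near the background of 5.61%. Of 9 erythrocyte genes edgeR and limma-voom called none and DESeq2 called 1 higher; 2 had an unadjusted p under 0.05, and their sum ranged from 705.6 to 1932 CPM at 24 months against 1126 to 1307 CPM at 15 months.

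Of 39 antioxidant and glutathione genes 8 (20.5%) were called lower and 1 (2.56%) higher, against 5.71% and 5.61% over all genes. The higher one, Gsta2, was named after its values were seen. Its call was lost in 5 of the 8 fits that left out 1 library. The count of lower genes was 1 without CrAT15Mchow185 or CrAT15Mchow204 and 3 without CrAT24Mchow123 and CrAT24Mchow136 together. Under library totals 2 were called lower and 7 higher, and the list median turned from -0.15 to 0.11. Sod3, the extracellular superoxide dismutase, measured 320, 416 and 416 CPM at 15 months and 177, 214, 262, 135.8 and 245 CPM at 24 months (log2 fold change -0.89, SE 0.16, adjusted p = 0.00208). Gpx3, the plasma glutathione peroxidase made by proximal tubules, fell from 14914, 18741 and 19529 CPM to between 7971 and 12435 CPM.

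Of 21 clock genes 4 (19.05%) were called lower and 2 (9.52%) higher, against 5.71% and 5.61% over all genes. None was called without CrAT24Mchow123 and CrAT24Mchow136. Dbp, an output gene of the clock, fell from 102, 84.3 and 127 CPM to between 21.2 and 62.3 CPM and Tef, a related output gene, from between 1568 and 1685 CPM to between 800 and 1173 CPM, while Arntl, the activator in antiphase to them, had 5 counts at 15 months and 78 at 24 months. These 3 calls were lost without CrAT15Mchow185 or CrAT15Mchow204 and without CrAT24Mchow123 and CrAT24Mchow136 together, and the hour of tissue collection is not given in the labels. Of 31 heat shock and endoplasmic reticulum chaperone genes 3 (9.68%) were called higher and 2 (6.45%) lower, near the 5.61% and 5.71% over all genes. Those called lower included Herpud1, of the endoplasmic reticulum stress response, from between 1066 and 1217 CPM to between 532 and 739 CPM. Hspa1b, an inducible HSP70 chaperone that may share reads with its copy Hspa1a, rose from 1.66, 0.566 and 1.61 CPM to 3.41, 3.63, 2.65, 14.9 and 3.08 CPM (adjusted p = 0.0176). Of 22 immediate early genes 5 (22.7%) were called higher, against 5.61% over all genes, and none lower (1 to 6 higher with 1 library left out). Fos itself was not called (log2 fold change 0.67, adjusted p = 0.581), nor was Txnip, a glucose-responsive thioredoxin inhibitor (log2 fold change -0.14, adjusted p = 0.917). None of 55 cytosolic ribosomal protein genes was called by edgeR or limma-voom and 2 by DESeq2; 45 of their values were higher, 12 of them at an unadjusted p under 0.05, and 13 were called higher under library totals.

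The same ages were compared in fl/fl cortex, with 196 genes called (1.3%), 0.823% of the tested genes higher and 0.478% lower. Of these, 98 were also called in the libraries labelled Pt-CrAT and all 98 had the same direction, which is 50% of the fl/fl calls and 5.75% of the Pt-CrAT calls. The difference between both age changes was tested directly for each gene, and none of 15064 passed in edgeR (smallest adjusted p = 0.112, 2255 genes at an unadjusted p under 0.05, against 753 if no gene differed); limma-voom also called none and the DESeq2 Wald test called 23. The larger count of calls under the Pt-CrAT label is thus not shown by edgeR or limma-voom to be a larger age change of any single gene. The tools differ on this point, and a gene that did not pass is not shown to change equally under both labels.

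For the genes of smallest p, the values lay side by side as follows. Crat had a log2 fold change of -0.93 in libraries labelled Pt-CrAT and 0.72 in fl/fl (difference -1.65, adjusted p = 0.27). Klf2 measured between 22.95 and 26.3 CPM in fl/fl at 15 months and between 19.4 and 24.3 CPM at 24 months, a log2 fold change of -0.15 against 0.93 (difference 1.08, adjusted p = 0.2). Uap1l1 fell by 1.05 on the log2 scale under the Pt-CrAT label and stood at 0.03 in fl/fl, and Ablim3, an actin-binding protein gene, fell by 1.03 and stood at 0.01 (adjusted p of each difference 0.27). Slc45a3 and Tsc22d3, the glucocorticoid-induced leucine zipper gene, had log2 fold changes of 1.13 and 0.34 against -0.82 and -1.0 in fl/fl (adjusted p of each difference 0.27). Lipa fell in both: in fl/fl it measured between 225.3 and 272 CPM at 15 months and between 129 and 146.1 CPM at 24 months (log2 fold change -0.88, SE 0.12, adjusted p = 0.0016). Slc5a2, Igfbp4, Cdkn1a, C3, Timp2, Sirt3 and Aldh1a1 were likewise called in both, with fl/fl log2 fold changes of -0.80, -0.79, 1.53, 1.11, 0.69, -0.43 and 1.75. Aqp2 had a log2 fold change of -0.01 in fl/fl against 1.42, with a difference of 1.44 that did not pass (adjusted p = 0.29). Over all genes 0.823% were called higher and 0.478% lower in fl/fl, against 5.61% and 5.71% under the Pt-CrAT label, so that list counts are not alike between the labels. For first and second segment genes of the proximal tubule 1 of 32 was called lower in fl/fl (20 of 32 at an unadjusted p under 0.05), and the median was -0.43 against -0.53. For urothelial genes none was called in fl/fl by edgeR (6 of 11 at an unadjusted p under 0.05), and the median was 1.13 against 3.66. Some other lists had a median further from 0 in fl/fl. Macrophage and myeloid genes had 7 of 28 called higher in fl/fl, against 0.823% over all genes there (median 0.71 against 0.60). Interferon response genes had 4 of 34 called higher (median 0.55 against 0.30), and clock genes 5 of 21 called lower (median -0.51 against -0.25).

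**Figure D5:**
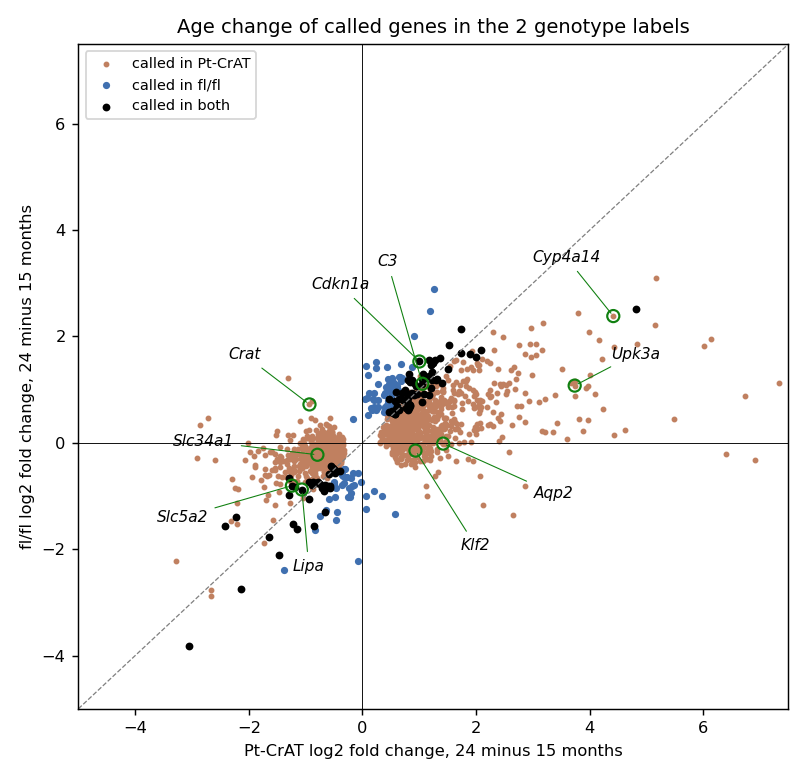
Log2 fold change from 15 to 24 months in libraries labelled Pt-CrAT (x axis) and in fl/fl libraries (y axis) of each gene called in at least 1 of them; the dashed line marks equal change and open rings mark the named genes. The 98 genes called in both (black) lie in the lower left and upper right, so that each moved the same way under both labels.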

How the data were processed

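RNA was isolated by the TRIzol method from kidney cortex and sequenced with the Lexogen QuantSeq 3' forward kit, per the labels. The authors deposited raw counts per gene for 16556 genes in 22 libraries, which were used here, and counts divided by DESeq2 size factors (unit signal), used only to check that both tables agree; GRCm38, R 3.4.3 and DESeq2 1.18.1 are named in the submitters' processing notes, and the aligner is not given in the sources used here. Gene names and positions came from GENCODE M21 (16514 genes matched). Genes with low counts were removed (filterByExpr, 15064 left), libraries were scaled by TMM, and 1 robust quasi-likelihood model over 22 libraries and 6 groups was fitted with edgeR 4.0.16 (R 4.3.3, 16 residual degrees of freedom), with Benjamini-Hochberg adjustment over all tested genes and a threshold of 0.05. CPM values use the TMM-scaled totals. TMM factors were between 0.936 and 0.979 at 15 months and between 1.06 and 1.20 at 24 months. The contrasts were 24 against 15 months under each genotype label, and their difference. DESeq2 1.42.0, limma 3.58.1 and the settings of the closing section were alternatives. No 2 libraries of a group agreed within sampling noise. No statement in the labels shows that each library is 1 animal from a separate litter. The p-values of the model judge each change against the spread between libraries, estimated over all 22, and not against the spread between litters. Counting intervals cover counting error only. The script was tested on simulated data. Members and gene lists were chosen with earlier results of these data known. Some genes stand in more than 1 list, so that their calls are counted in each. Klf2 stands in the endothelial and immediate early lists, and Lcn2 in the complement and injury lists. Acta2 stands in the matrix and stromal lists, and Slc7a7 in the androgen-responsive list and that of the early proximal tubule segments. The genes named were, among called genes of at least 5 CPM, the 15 largest changes and the 10 smallest p in each direction, up to 6 called and 2 uncalled genes per list by p, and a fixed set of reference genes; the text gives a part of these, and a few are not reported here.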

Additional observations from a re-analysis of the deposited data

Results flagged for a closer look

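In the group of 24-month libraries labelled Pt-CrAT, 14 values were set apart from the other 4 by a gap above the Dixon limit of 0.71 of the whole range. Of 127 values examined, 6.4 would be so by chance at a rate of 1 in 20, and values of 1 animal are not independent. CrAT24Mchow136 accounted for 9 of them and CrAT24Mchow123 for 5.

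CrAT24Mchow136 was lowest in Crat (28.4 CPM, the others 37.7 to 38.9), in the arginine enzyme gene Ass1 (1228 CPM, the others 1892 to 2130) and in mt-Nd2 (2453 CPM, the others 3367 to 3618). It was highest in Psca (76.9 CPM), in the urothelial sum (156 CPM, the others 67.0 to 84.6), in Spp1 (182.6 CPM), in the heat shock gene Hspa1b (14.9 CPM, the others 2.65 to 3.63), in Slc45a3 (49.0 CPM) and in the glucocorticoid-induced Tsc22d3 (62.7 CPM, the others 27.4 to 36.5).

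CrAT24Mchow123 was lowest in Angptl4 (24.2 CPM, the others 58.8 to 69.2), Igfbp4 (433 CPM, the others 590 to 628) and Herpud1 (532 CPM). It was highest in Nccrp1 (196 CPM, the others 66.4 to 95.7) and Timp2 (316 CPM).

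Hspa1b also went opposite ways under the 2 genotype labels: each 24-month library labelled Pt-CrAT lay above the 15-month libraries, and each fl/fl library of 24 months (1.09 to 2.53 CPM) lay below those of 15 months (3.06 to 6.15 CPM). The difference of the log2 fold changes was 3.28, which did not pass in edgeR (adjusted p = 0.27).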

How the results depend on the processing

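The count of genes called between 24 and 15 months in libraries labelled Pt-CrAT, 1705, ranged from 393 to 1777 with 1 library left out; the lowest counts came without CrAT15Mchow204 (393) and CrAT15Mchow185 (421), and leaving out CrAT24Mchow136 gave 1097. It was 417 without CrAT24Mchow123 and CrAT24Mchow136 together, a pair left out for its low Kap, so that this setting also rests on values of these data. Further settings chosen after seeing the data gave 2710 with library totals in place of TMM and 1114 without CrAT24Mchow136 and CrAT15Mchow183. The other settings (DESeq2 size factors, no filter on low counts, the DESeq2 Wald test, limma-voom, the 16 chow libraries or the 8 Pt-CrAT chow libraries in the fit) gave between 1273 and 2198. The fl/fl count, 196, became 764 by the DESeq2 Wald test, 490 with the 16 chow libraries and 338 with library totals. The difference of the age changes, 0 by edgeR, became 23 by the DESeq2 Wald test and was 0 in each setting that left out libraries. The cause of these changes was not tested, and neither was the part of the smaller number of libraries where some were left out. Of 105 genes named as called, 59 kept their call without CrAT15Mchow204, 64 without CrAT15Mchow185, 68 without CrAT24Mchow123 and CrAT24Mchow136, 94 with library totals and 97 to 105 without any other single library; none turned direction when called. Lost calls are not marked for every gene above. With 1 library left out, the calls for Slc22a6, Acsm2, Acadvl, Gpx3, Lpl, Cfb, Vcam1, Lyz2, C1qc, Mzb1, Hspa1b and Cdkn2b, among others, were each lost in 2 of the 8 fits. No paired analysis was possible because the age groups share no animal numbers.

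The small number of libraries, 3 at 15 months and 5 at 24 months, limits precision. Genes under about 1 CPM rest on a few counts per library, so that fold changes of Upk1b, Cdkn2a, Cdkn2b or Slc6a12 carry wide errors. Kap, Jchain and Crot spread among the 24-month animals by more than the age difference could be resolved against.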

Other observations

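Further lists, not described above, gave the following counts in libraries labelled Pt-CrAT. Over all genes 5.61% were called higher and 5.71% lower. NF-kB pathway genes and targets gave 4 of 21 (19.05%) called higher and none lower. Chemokine and leukocyte adhesion genes gave 3 of 17 (17.65%) higher and none lower. With 1 library left out these counts ranged from 1 to 5 and from 0 to 3. Under library totals, where 2408 of all 15064 genes were called higher, they were 10 and 6. MHC class I and antigen processing gave 1 of 17 higher and MHC class II 1 of 9 higher. Hypoxia response genes gave 2 of 23 higher and none lower. The integrated stress response gave 3 of 22 genes higher and 3 lower. Amino acid catabolism gave 2 of 36 higher and 5 lower, cholesterol synthesis and lipogenesis 2 of 37 higher and 3 lower, and renin-angiotensin and brush-border peptidase genes 1 of 16 higher and 2 lower. Of 31 proteasome genes 3 were called lower and none higher.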
